A study of Danio rerio with 16 samples.

Results

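Genes of the neuroendocrine stress axis and of the neurohypophysial peptide system were examined in whole-brain RNA-sequencing data from 4 zebrafish strains. The set of 9 was chosen by gene symbol, all 9 were present, and they are 9 of the 15304 protein-coding genes in the expression table. They were crhb (ENSDARG00000027657), crhbp (ENSDARG00000024831), crhr1 (ENSDARG00000003989), nr3c1 (ENSDARG00000025032), nr3c2 (ENSDARG00000037025), fkbp5 (ENSDARG00000028396), hsd11b2 (ENSDARG00000001975), oxt (ENSDARG00000042845) and avp (ENSDARG00000058567).

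In teleosts, corticotropin-releasing hormone from the preoptic hypothalamus drives pituitary release of adrenocorticotropic hormone, which in turn drives cortisol synthesis in the interrenal tissue. Cortisol acts on the brain through the glucocorticoid and mineralocorticoid receptors and, through the former, restrains its own axis. Isotocin and vasotocin, the fish counterparts of oxytocin and vasopressin, are made by preoptic neurons that project to the neurohypophysis and to many brain areas, and both are studied for their parts in social behavior, stress and water balance.

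HSB and LSB are lines derived from wild-caught fish and bred for high and low stationary behavior respectively, whereas AB and SH (Scientific Hatcheries) were bought from commercial suppliers. For every strain and sex there were 2 libraries, each from the pooled brain RNA of 10 fish aged 17 weeks, which gave 16 libraries from 160 fish. No engineered allele, drug or imposed stressor is named for any group, and some of the HSB and LSB fish had earlier been through behavioral tests. Each strain is 1 breeding line, so a difference between HSB and LSB is a difference between those lines, and selection and other differences of ancestry cannot be told apart.

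Expression is given in CPM, reads on a gene scaled to a library total of 1000000. CPM takes no account of gene length, so levels were compared between libraries and not between genes. Libraries held 18398865 to 35737825 reads on genes, and 1 read was worth 0.0280 to 0.0544 CPM. The shallowest measurements were those of crhr1, with 66 to 236 reads per library, and of avp, with 146 to 350. All others had at least 365 reads in every library, and oxt had up to 14746. Markers of neurons (7 of 9 listed, summed to 5219 to 5585 CPM), radial glia (5 of 6) and oligodendrocytes (6 of 7) were present in every library. Of 12 genes listed as pituitary markers, only 2 were in the table, prl2 (5.71 to 15.8 CPM) and pomca (1.89 to 3.01 CPM). Their summed level was 7.70 to 18.6 CPM. The rest of that list, which includes prl, gh1 and lhb, was not found under the symbols used. Whether the libraries hold pituitary RNA, and whether prl2 and pomca were read from pituitary cells, was not tested. Prl2 was higher in AB than in SH (log2 fold change 0.94, limma adjusted p = 0.00102), and neither prl2 nor pomca passed between HSB and LSB. In whole-brain RNA, fewer cells of a type and less RNA per cell cannot be told apart.

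Both LSB libraries numbered 2 went against their sex label for dio2, a deiodinase gene whose level separated the sexes in the other strains (42.1 to 76.7 CPM in females, 110 to 198 CPM in males). In LSB it was 50.4 and 128 CPM in the female pools and 117 and 40.1 CPM in the male pools. The male-biased genes igf1 (11.0 CPM in LSB female pool 2 and 6.03 CPM in LSB male pool 2) and hsd17b3 (14.6 and 5.99 CPM) and the female-biased aromatase gene cyp19a1b (2228 and 3028 CPM) ran against these labels too. An exchange of the libraries is possible and was not tested. Both are LSB libraries, so an exchange would concern their sex labels and not their strain. A fit without them has fewer LSB libraries, which by itself can change a call. The labels were kept, and some results that rest on those libraries are also given without them. Values that split LSB by sex include them unless stated. The LSB female pools also showed the largest root mean square log2 difference of any pair of pools, 0.287, against 0.163 to 0.271 in the others. The authors report that an LSB female library was an outlier in their coexpression network analysis and was left out of it. They do not say which pool it was.

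The first comparison asked how HSB differed from LSB. Expression of crhr1 and hsd11b2 was higher in HSB, expression of crhb was lower in HSB, and the other 6 genes did not pass the test. Differences were estimated with limma on log2(CPM + 0.5), with strain and sex as terms, and p-values were adjusted over all genes by the Benjamini-Hochberg method with a threshold of 0.05. Among all genes 21.9% passed, 12.1% higher and 9.84% lower in HSB. The 3 of 9 called here are therefore close to the share among all genes. The p-values rest on 1 spread for each gene, pooled over the libraries of all 4 strains after the strain and sex terms. It is a spread between pools of fish and not between independently bred lines.

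Crhb encodes corticotropin-releasing hormone, the peptide at the head of the axis. It measured 38.3 and 37.1 CPM in the HSB female pools, 33.9 and 35.3 CPM in the HSB male pools, 38.7 and 46.5 CPM in the LSB female pools, and 42.1 and 37.3 CPM in the LSB male pools. The groups overlapped, because LSB male pool 2 lay within the HSB range, and LSB female pool 2 stood highest. The fitted log2 fold change of -0.18 (standard error 0.06) had an adjusted p of 0.0445, with means of 36.2 ± 1.93 CPM in HSB and 41.2 ± 4.12 CPM in LSB (SD, n = 4 libraries). This call was fragile. It was past the threshold in 6 of the 16 fits that left out 1 library, with an adjusted p of 0.0170 to 0.134 and the weakest value, -0.12, without LSB female pool 2. It was lost without both LSB pools numbered 2 (-0.16, adjusted p = 0.0788) and when only the HSB and LSB libraries entered the fit (adjusted p = 0.119).

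Crhbp encodes a secreted protein that binds corticotropin-releasing hormone and limits its access to receptors. It had 113 ± 12.2 CPM in HSB and 111 ± 8.08 CPM in LSB, and the libraries ranged from 95.1 to 124 CPM and from 98.9 to 116 CPM. The log2 difference of 0.02 (adjusted p = 0.849) had a 95% interval of -0.12 to 0.16.

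Crhr1 encodes the receptor through which corticotropin-releasing hormone acts on pituitary corticotropes in mammals, and it is also expressed in the brain. It measured 4.91 and 4.89 CPM in HSB females, 5.49 and 4.86 CPM in HSB males, 3.86 and 2.45 CPM in LSB females, and 3.92 and 4.26 CPM in LSB males. Every HSB library lay above every LSB library, and LSB female pool 2 was the lowest of all 16. The means were 5.04 ± 0.300 and 3.62 ± 0.800 CPM, and the fitted log2 fold change of 0.45 (standard error 0.12) passed the test (adjusted p = 0.0140). It stayed past the threshold whichever single library was left out, although its size fell from 0.45 to 0.29 (adjusted p = 0.0233) without LSB female pool 2. Without both LSB pools numbered 2 it was 0.33 (adjusted p = 0.0254), and with the HSB and LSB libraries alone the call was lost (adjusted p = 0.0586).

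The corticosteroid receptor genes did not pass the test. The glucocorticoid receptor gene nr3c1 had 101 ± 2.45 CPM in HSB and 103 ± 7.46 CPM in LSB, a log2 difference of -0.02 (adjusted p = 0.749, 95% interval -0.12 to 0.07). The mineralocorticoid receptor gene nr3c2 had 22.4 ± 1.05 and 20.9 ± 4.21 CPM, a log2 difference of 0.12 (adjusted p = 0.385, 95% interval -0.08 to 0.31). The wider spread of nr3c2 in LSB followed the labelled sexes, with 19.3 and 15.8 CPM in females and 23.6 and 25.0 CPM in males. It rests in part on the libraries numbered 2, and the sex difference would turn sign if these had been exchanged.

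Hsd11b2 encodes the type 2 11β-hydroxysteroid dehydrogenase, which converts cortisol to inactive cortisone. It had 29.7 and 26.5 CPM in HSB females, 20.7 and 18.7 CPM in HSB males, 16.1 and 15.9 CPM in LSB females, and 14.5 and 18.6 CPM in LSB males. The HSB female pools stood clearly above the LSB female pools, whereas the lowest HSB male pool and the highest LSB male pool almost met. The means were 23.9 ± 5.10 CPM in HSB and 16.3 ± 1.70 CPM in LSB, and their log2 fold change of 0.52 (standard error 0.13) passed the test (adjusted p = 0.00752). It passed in all 23 alternatives tried, with an adjusted p between 0.00121 and 0.0290.

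Fkbp5 encodes a co-chaperone of Hsp90 that lowers the hormone affinity of the glucocorticoid receptor in mammals, and its own transcription rises with glucocorticoids. It had 277 and 198 CPM in HSB females, 207 and 165 CPM in HSB males, 196 and 182 CPM in LSB females, and 178 and 217 CPM in LSB males. The strains overlapped across most of their range. The log2 difference was 0.11 (standard error 0.32, adjusted p = 0.831), and its 95% interval of -0.58 to 0.80 leaves room for a sizeable difference in either direction.

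Oxt, the isotocin gene of zebrafish, had 191 and 188 CPM in HSB females, 167 and 173 CPM in HSB males, 131 and 150 CPM in LSB females, and 168 and 135 CPM in LSB males. LSB male pool 1 fell within the HSB male range, and the other 3 LSB libraries lay below all of HSB. The log2 difference of 0.31 (standard error 0.11) had an adjusted p of 0.0558 and so did not pass. The adjusted p ranged from 0.0279 to 0.165 when libraries were left out 1 at a time, with 5 of the 16 fits past it. The call was also gained with the HSB and LSB libraries alone (adjusted p = 0.0425) and with the pool number as a block (adjusted p = 0.0485). In total 7 of the 23 alternatives passed, and the fit without both LSB pools numbered 2 was not among them.

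Avp, the vasotocin gene, had 9.32 ± 1.93 CPM in HSB (7.93 to 12.1) and 9.74 ± 1.41 CPM in LSB (8.41 to 11.7). Its log2 difference was -0.07 (adjusted p = 0.704, 95% interval -0.32 to 0.18). Of the 9 genes, crhr1 and hsd11b2 had libraries that did not overlap between HSB and LSB, a pattern found in 19.9% of all genes.

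**Figure D1:**
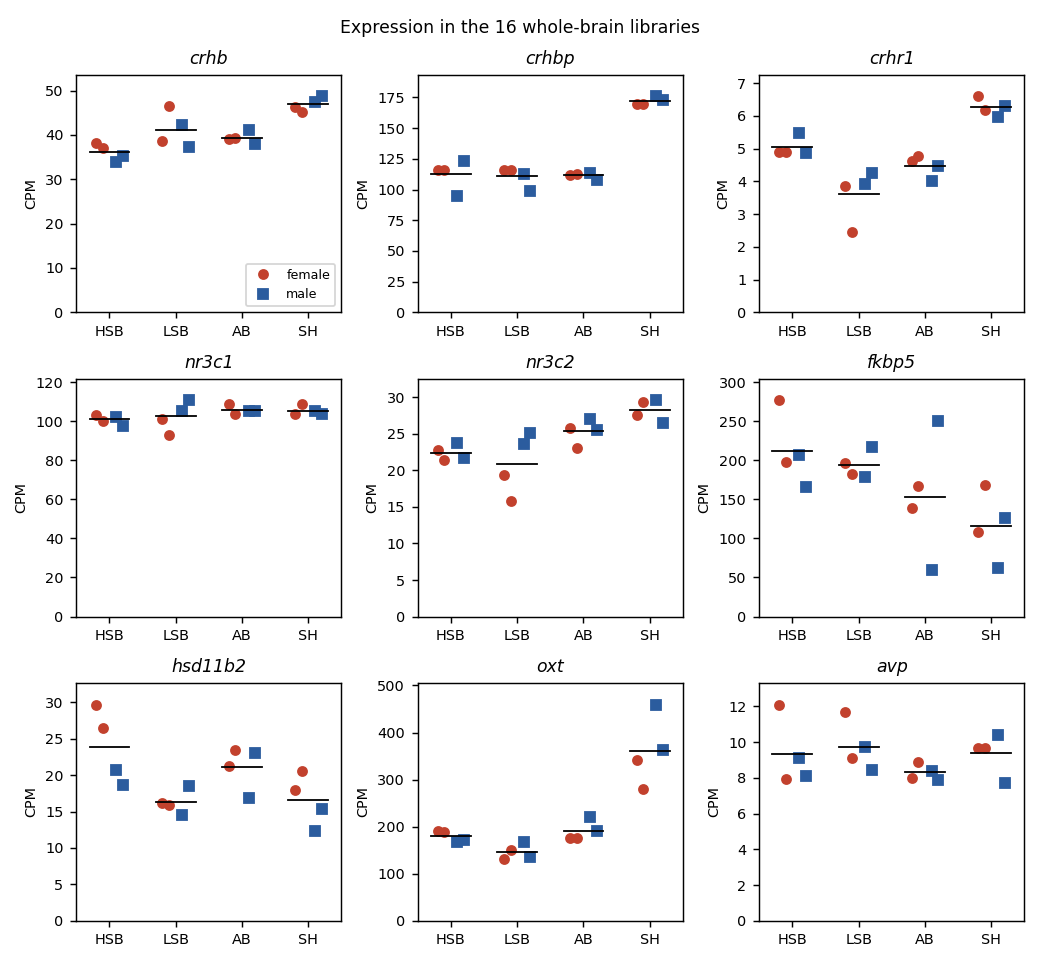
Expression of the 9 genes in CPM (vertical axes, starting at 0, with a separate scale for each gene) in the 4 libraries of each strain, with females as circles, males as squares and the strain mean as a line. The crhr1 and hsd11b2 points of HSB lie above all LSB points, and the SH points of crhbp, crhr1 and oxt lie above those of every other strain. The fkbp5 points are widely spread within HSB, AB and SH, most in AB.

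Genes that act beside these were read as lists. Of 60 pathway genes in the table, 11 (18.3%) passed between HSB and LSB, 4 higher and 7 lower in HSB, against 21.9% of all genes. The median log2 fold change was 0.11 over the 9 genes and 0.03 over all genes. Among 3 further CRH family genes, 1 was lower in HSB and none was higher. This was ucn3l, a urocortin 3 peptide gene, with 13.3 to 14.1 CPM in HSB and 15.3 to 16.9 CPM in LSB (log2 fold change -0.26, adjusted p = 0.00239), so the ranges did not overlap.

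Of 6 proopiomelanocortin and melanocortin receptor genes, mc5ra, a melanocortin receptor gene, was higher in HSB (0.26, adjusted p = 0.00582). In the same list mrap2a, which encodes an accessory protein of melanocortin receptors, was lower (-0.22, adjusted p = 0.0259), and the other 4 did not pass. Of 3 steroid synthesis and cortisol conversion genes, tspo, a mitochondrial outer membrane protein gene linked to steroid synthesis, was lower in HSB (-0.30, adjusted p = 0.0103). The call of tspo was lost without both LSB pools numbered 2, as was that of mrap2a. Of the 10 genes for chaperones of the corticosteroid receptors none passed, and 1 was called higher in HSB without those pools.

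The list of 18 glucocorticoid-responsive genes held 2 that were higher and 2 that were lower in HSB, with a median log2 fold change of 0.06, where 12.1% and 9.84% of all genes were called. The largest differences were those of mt2, a metallothionein gene, and ddit4, an inhibitor of mTORC1 signaling that responds to several stresses. Mt2 had 306 to 449 CPM in HSB and 608 to 692 CPM in LSB (-0.71, adjusted p = 0.000268), and ddit4 had 17.4 to 21.7 and 30.4 to 35.7 CPM (-0.69, adjusted p = 0.000108). All HSB libraries lay below all LSB libraries for both. Sgk2a, a kinase gene of the SGK family, and per1b, a clock gene, were higher in HSB (0.39, adjusted p = 0.0186, and 0.23, adjusted p = 0.0316).

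None of the 3 oxytocin and vasopressin receptor genes in the table passed the test. Their log2 differences were -0.02 for oxtr, 0.06 for avpr2ab and 0.22 for avpr1b (adjusted p = 0.0826), and without both LSB pools numbered 2 there was 1 receptor gene called higher in HSB. Of 9 prohormone processing genes, 1 passed (2 without those pools), chgb, which encodes a granule protein of neuroendocrine cells and was lower in HSB (-0.27, adjusted p = 0.000991). Of 8 hypothalamic transcription factor genes, the paralogs otpa and otpb, which specify neuroendocrine neurons that include those for oxt and crhb in zebrafish, went in opposite directions (-0.19, adjusted p = 0.0173, and 0.22, adjusted p = 0.0420). The call of otpb was lost when libraries were rescaled by their median ratio.

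The list of other hypothalamic peptides had 10 genes in the table, with a median log2 difference of -0.20 against 0.03 over all genes. Against 9.84% lower and 12.1% higher among all genes, 4 of the 10 were lower in HSB and none was higher. These were pmchl (-0.42, adjusted p = 0.0200), tac1 (-0.41, adjusted p = 0.00127), vip (-0.31, adjusted p = 0.00695) and sst1.1 (-0.23, adjusted p = 0.0116), the precursors of a melanin-concentrating hormone, tachykinins, vasoactive intestinal peptide and somatostatin. The summed level of the list was 428 to 530 CPM in HSB and 524 to 631 CPM in LSB. The ranges barely overlapped. The RNA was of whole brain, so these values do not show where in the brain the listed peptide genes differed. Of the 4 blood markers, 1 was lower in HSB (hbaa1, -0.54, adjusted p = 0.00599), and the other 3 did not pass. The summed level of the 4 was 1300 to 1645 CPM in HSB and 1678 to 2450 CPM in LSB. Most of that sum was hbaa1 itself, with means of 1065 CPM in HSB and 1564 CPM in LSB. None of the 7 neuron, 5 radial glia and 6 oligodendrocyte markers passed. Their part in the differences of the stress axis genes was not tested.

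**Figure D2:**
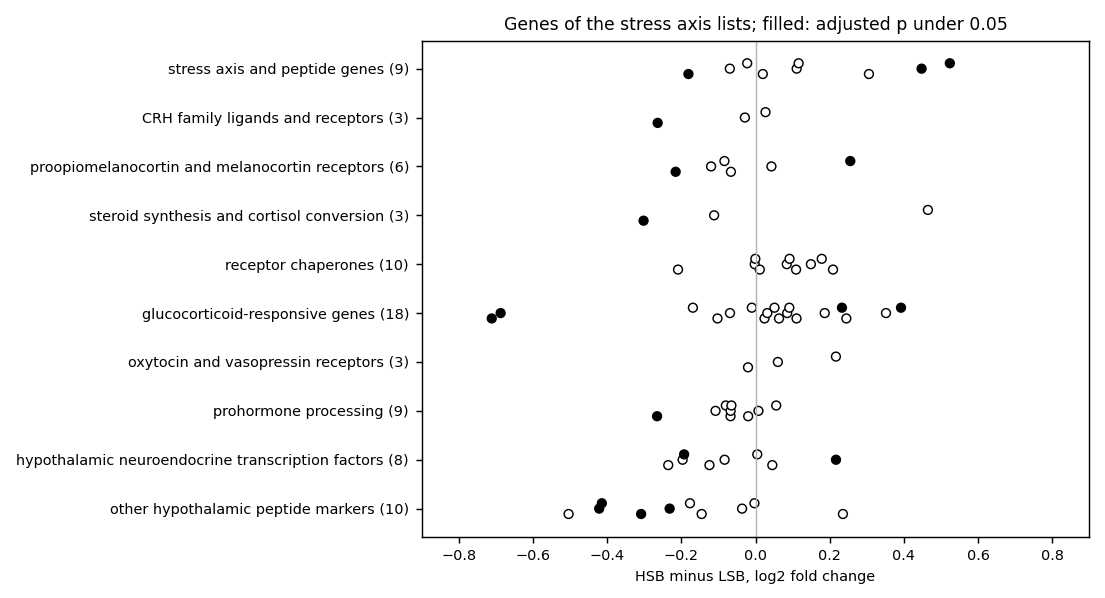
Log2 fold change of HSB over LSB (horizontal axis, log2(CPM + 0.5) scale) for each gene of the stress axis lists, with 1 row per list, the number of genes in parentheses and filled points for adjusted p under 0.05. Most points are open and lie near 0, and the list of other hypothalamic peptides has 4 filled points, all at negative values.

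Over all 4 strains, more of the genes differed than between the selected lines alone. In the test over strains, 6 of 9 genes passed (crhb, crhbp, crhr1, nr3c2, hsd11b2 and oxt), as did 61.5% of all genes. The lowest adjusted p values were 1.01e-06 for oxt and 1.60e-06 for crhbp. Those of fkbp5 (0.0594), avp (0.398) and nr3c1 (0.440) did not pass.

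SH stood apart. For oxt, the SH libraries had 341 and 280 CPM in females and 460 and 362 CPM in males, against 175 and 175 CPM in AB females and 220 and 191 CPM in AB males. Every SH library was above all 12 libraries of the other strains, where the highest was 220 CPM. For crhbp, the 4 SH libraries lay between 170 and 176 CPM, and no library of another strain exceeded 124 CPM. Crhr1 had 5.95 to 6.60 CPM in SH and at most 5.49 CPM elsewhere. Over all genes 12.3% were higher in every SH library than in all others, and 3 of the 9 genes were. Crhb was also highest on average in SH, at 46.9 ± 1.55 CPM, but LSB female pool 2, at 46.5 CPM, fell within the SH range.

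Between the commercial strains, 4 of the 9 genes were lower in AB than in SH and 1 was higher. Among all genes 36.8% passed, 14% higher and 22.8% lower. The lower ones were oxt (log2 fold change -0.90, standard error 0.11, adjusted p = 1.57e-05), crhbp (-0.62, adjusted p = 3.18e-06), crhr1 (-0.45, adjusted p = 0.00826) and crhb (-0.25, adjusted p = 0.00470). Hsd11b2 was higher, with 21.3, 23.4, 16.9 and 23.1 CPM in AB and 18.0, 20.6, 12.4 and 15.3 CPM in SH (0.36, standard error 0.13, adjusted p = 0.0347). Its ranges overlapped, and the call was lost in 5 of the 16 fits that left out 1 library, up to an adjusted p of 0.129 without AB male pool 2. The other 4 fits were those without AB female pool 2 (0.0680), SH female pool 1 (0.0673) and the SH males of pool 1 (0.123) or pool 2 (0.0516). A total of 5 of the 6 oligodendrocyte markers were also higher in AB than in SH (median 0.32). Their summed level was 36110 to 43610 CPM in AB and 25910 to 31240 CPM in SH. Of 5 radial glia markers 1 was higher and 1 lower, of 7 neuron markers 1 was higher, and of 4 blood markers none passed. The part of these markers in the strain differences was not tested.

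The wild-derived lines together differed from the commercial strains in 6 of the 9 genes, 5 lower and 1 higher, where 37.2% of all genes passed, 12.9% higher and 24.3% lower. Lower were oxt (-0.68, adjusted p = 8.92e-06), crhbp (-0.32, adjusted p = 8.86e-05), nr3c2 (-0.31, adjusted p = 0.00195), crhr1 (-0.29, adjusted p = 0.0138) and crhb (-0.16, adjusted p = 0.0107). The call of crhb was lost after rescaling by the median ratio (-0.12, adjusted p = 0.0631). Under that rescaling the share of called genes that were higher moved from 34.7% to 49.7% here, and from 37.9% to 50.9% in AB against SH. Fkbp5 was the gene that was higher in the wild-derived lines (0.71, standard error 0.23, adjusted p = 0.0233). Without SH male pool 1 it was 0.59 and the call was lost (adjusted p = 0.0512). Earlier behavioral tests are reported only for fish of HSB and LSB, and the strains also differ in breeding history. Their parts and that of ancestry cannot be told apart in this comparison. Markers of cell types differed in the same comparison, with 5 of 6 oligodendrocyte markers (median 0.22) and 3 of 4 blood markers (median 0.29) higher in the wild-derived lines. Of 7 neuron markers 1 was higher and 2 were lower, and of 5 radial glia markers 1 was higher and 2 were lower. The part of these markers in the differences was not tested.

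For oxt, crhbp, crhr1 and crhb the difference from the commercial strains lay largely in SH. Crhr1 was not lower in HSB than in AB (0.16, limma adjusted p = 0.408). Fkbp5 was above AB by 0.61 log2 units in HSB and 0.50 in LSB, and above SH by 0.92 and 0.81. Against AB alone, no gene of the 9 passed in HSB (18.6% of all genes did), and the lowest adjusted p was 0.193 for crhb. In LSB, 3 were lower than in AB (25.8% of all genes passed), namely oxt (-0.38, adjusted p = 0.0170), hsd11b2 (-0.37, adjusted p = 0.0417) and nr3c2 (-0.29, adjusted p = 0.0302). Against SH, 6 of 9 passed in HSB and 6 of 9 in LSB, where 32.7% and 49% of all genes passed. Oxt was lower than in SH by 0.98 log2 units in HSB and by 1.29 in LSB. Crhr1 was lower than in SH in LSB (-0.74, adjusted p = 0.000153), whereas for HSB the difference of -0.29 did not pass (adjusted p = 0.0736). Hsd11b2 was higher in HSB than in SH (0.52, adjusted p = 0.00535), and for LSB the difference from SH was -0.01 (adjusted p = 0.960). These comparisons share libraries, so they are not independent of one another.

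The order of the strain means by oxt was SH (361 ± 74.7 CPM), AB (190 ± 20.9 CPM), HSB (180 ± 11.7 CPM) and LSB (146 ± 17.1 CPM). AB and HSB did not differ beyond their spread (log2 difference of HSB over AB -0.08, adjusted p = 0.679), nor did HSB and LSB past the threshold. For hsd11b2 it was HSB (23.9 ± 5.10 CPM), AB (21.2 ± 3.01 CPM), SH (16.6 ± 3.53 CPM) and LSB (16.3 ± 1.70 CPM), and the first pair and the last pair were not separated by the test. For nr3c2 the order was SH (28.2 ± 1.46 CPM), AB (25.4 ± 1.66 CPM), HSB (22.4 ± 1.05 CPM) and LSB (20.9 ± 4.21 CPM), and no neighbours in it differed past the threshold. Nr3c1 had the most even means, from 101 to 106 CPM, and avp had means from 8.30 to 9.74 CPM.

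**Figure D3:**
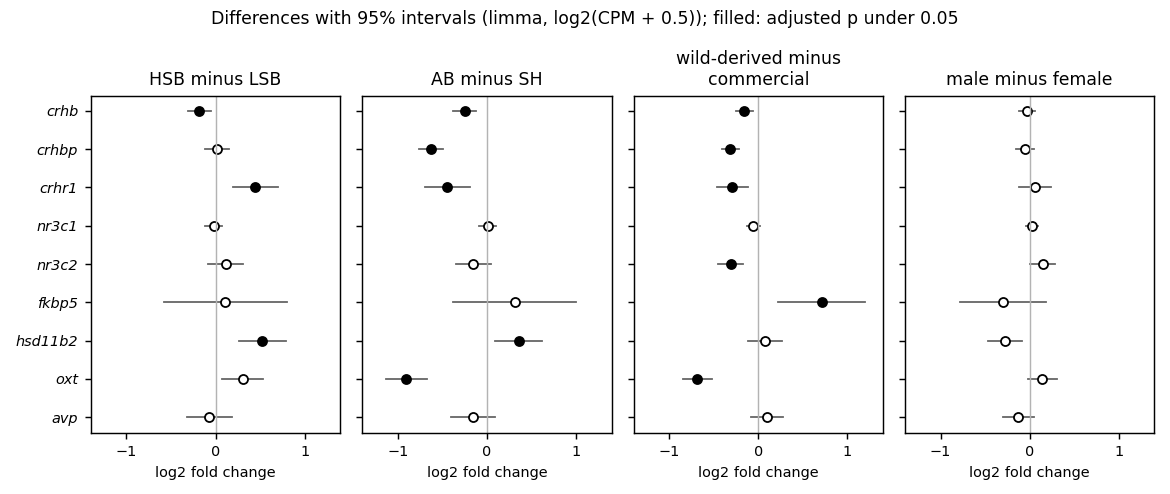
Estimated differences of the 9 genes in 4 comparisons (horizontal axes, log2 fold change on the log2(CPM + 0.5) scale; bars, 95% intervals from limma; filled, adjusted p under 0.05). Oxt lies farthest to the left in both comparisons with commercial strains, fkbp5 has the widest intervals, and every male minus female point is open.

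Fkbp5 was the gene of the 9 that varied most between pools of the same strain and sex. In AB males it had 59.4 CPM in pool 1 and 250 CPM in pool 2, a ratio of 4.20. Of all 15304 genes, 32 (0.209%) differed as much between these pools. In SH males it had 62.7 and 127 CPM, a ratio of 2.02, and in SH females 108 and 168 CPM. The median absolute log2 difference between pools was 0.40 for fkbp5 and 0.09 for the median gene, and its largest was 2.06, against 0.12 for nr3c1 and 0.29 for nr3c2. The median differences of the receptor genes were 0.07 for nr3c1 and 0.11 for nr3c2, and the largest difference of the median gene was 0.26. The receptor genes thus varied between pools about as an ordinary gene of the table did.

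Klf9, a Krüppel-like transcription factor gene on the glucocorticoid-responsive list, differed between pools in the same direction as fkbp5, though not always by as much. It was singled out after its values were seen. It had 12.7 and 50.9 CPM in AB males, 10.7 and 22.0 CPM in SH males, 44.9 and 26.7 CPM in HSB females and 30.9 and 22.8 CPM in HSB males. Its pool ratio in AB males was 4.02. In SH females klf9 differed by only 0.05 on the log2 scale, where fkbp5 differed by 0.64. Among the 8 other genes of the set and the 18 glucocorticoid-responsive genes, klf9, cebpd and hsd11b2 differed in the direction of fkbp5 in all 8 pairs of pools, as did 62 of the 15303 other genes of the table (0.405%). Cebpd encodes a transcription factor of the C/EBP family. For hsd11b2 the differences were smaller, with 16.9 and 23.1 CPM in AB males and at most 0.44 on the log2 scale. The pools hold different fish, and the labels give no time or order of sampling for a pool.

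**Figure D4:**
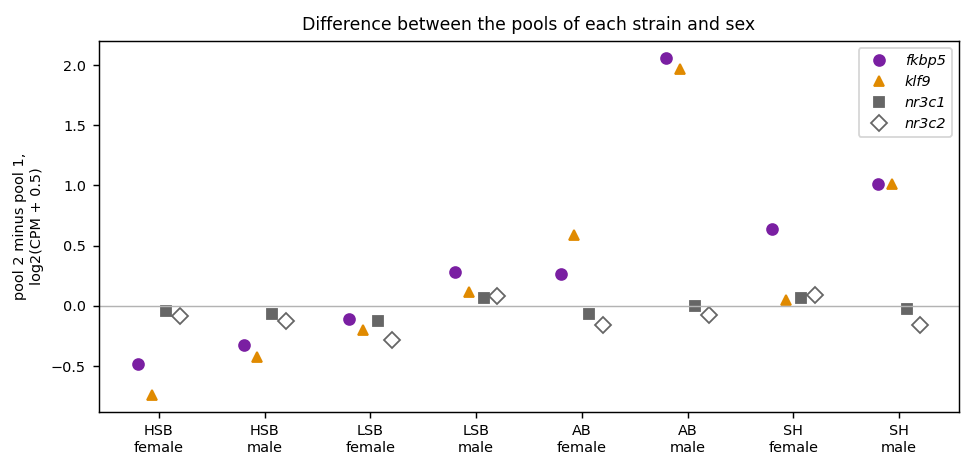
Log2 difference between pool 2 and pool 1 (vertical axis, log2(CPM + 0.5) scale) of fkbp5, klf9, nr3c1 and nr3c2 for each strain and sex. Fkbp5 and klf9 lie on the same side of 0 in all 8 pairs and reach about 2 in AB males, whereas nr3c1 and nr3c2 remain near 0.

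None of the 9 genes differed between males and females past the adjusted threshold in limma, where 0.0392% of all genes did. The authors report more sex-biased genes, from counts with edgeR. Without both LSB pools numbered 2, 80 genes of the table passed in limma and 0 of the 9 did. With all 16 libraries, 2 of the 9 had an unadjusted p under 0.05, against 10.2% of all genes. These were hsd11b2 and nr3c2. In the 8 female libraries hsd11b2 averaged 21.4 ± 4.93 CPM and in the 8 male libraries 17.5 ± 3.47 CPM (mean ± SD), a log2 difference of -0.28 (limma unadjusted p = 0.00645, adjusted p = 0.299). It was lower in males by 0.50 in HSB, 0.47 in SH and 0.17 in AB on the log2 scale, while LSB had a difference of 0.04. Without both LSB pools numbered 2 the value was -0.35 (adjusted p = 0.0724).

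Nr3c2 averaged 23.1 ± 4.43 CPM among females and 25.3 ± 2.42 CPM among males (0.15, limma adjusted p = 0.462). Most of that difference lay in LSB, where it was 0.47 on the log2 scale, against 0.04 in HSB, 0.10 in AB and -0.02 in SH, and the LSB value rests in part on the libraries numbered 2. Without both LSB pools numbered 2 it was 0.08 over all strains (adjusted p = 0.591). Oxt averaged 204 ± 70.7 CPM among females and 234 ± 115 CPM among males (0.14, adjusted p = 0.543), and the differences by strain were 0.40 in SH, 0.23 in AB, 0.11 in LSB and -0.16 in HSB. Avp differed by -0.13 (adjusted p = 0.601) and was lower in males in 4 of 4 strains, with log2 differences from -0.18 to -0.05. These were smaller than its SD between pools of the same strain and sex, 0.21 on that scale.

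The difference between HSB and LSB was also taken within each sex. For hsd11b2 it was 0.79 in females and 0.25 in males on the log2 scale, for crhr1 0.59 and 0.30, and for oxt 0.44 and 0.17. For crhb it was -0.17 and -0.19. These values include the LSB pools numbered 2, which ran against their sex labels, so the split by sex is uncertain. The difference between the female and male values is the sex difference in HSB against that in LSB. For crhr1 it was -0.29, and 0.05 without both LSB pools numbered 2. This difference was tested in limma and passed for 0 of 9 genes, as for 0% of all genes. At an unadjusted p under 0.05 there were 3 of the 9 (nr3c2, hsd11b2 and nr3c1), against 21% of all genes. Nr3c2 had the lowest adjusted p, 0.139, for a value of -0.42 (standard error 0.14), and hsd11b2 had -0.54 (adjusted p = 0.183). These values were also taken over 6 settings that changed the processing or left out both LSB pools numbered 2. They ran from -0.43 to -0.24 for nr3c2, from -0.55 to -0.35 for hsd11b2 and from -0.18 to -0.08 for nr3c1.

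This result turned on 1 library. Without LSB female pool 1, which leaves pool 2 as the lone LSB female library and assumes that it varies like the others, nr3c2 (-0.57, adjusted p = 0.00918), crhr1 (-0.57, adjusted p = 0.0393) and nr3c1 (-0.24, adjusted p = 0.0475) passed, and the count over all genes rose from 0 to 2485. Without LSB female pool 2 the values were -0.28, -0.01 and -0.11 and none passed. In the test of sex by strain over all 4 strains, 0 of 9 genes passed in limma and 0.0327% of all genes did. At an unadjusted p under 0.05 there were 2 of the 9, against 16.6% of all genes, and the lowest adjusted p was 0.223 for nr3c2.

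The genes whose levels most resembled those of oxt, avp and the 3 genes called between HSB and LSB were found by Pearson correlation of log2(CPM + 0.5) over the 16 libraries. These correlations include the strain differences that the libraries share and are given as a description. For oxt they were tmem120b (0.95), OXR1 (2 of 3) (0.95) and sec63 (0.94). For crhr1 they were BDP1 (2 of 2), ash1l and igf1rb (each 0.97), for crhb txnl1 (0.89), CU469577.1 (0.88) and fkbp10b (0.88), and for hsd11b2 slc6a13 (0.88), cntfr (0.85) and rapgef4 (0.83). For avp the highest values were lower, with POLDIP3 (0.84), C20H8orf82 (0.82) and sla2 (0.79).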

How the data were processed

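RNA-sequencing libraries were made from whole-brain RNA of 16 pools of fish and read as single ends on an Illumina GAIIx. The authors used GSNAP for alignment to the Zv9 genome and HTSeq (union mode) for gene counts. For protein-coding genes they deposited CPM, which are those counts scaled so that each library sums to 1000000. The submitters' processing notes also name CASAVA 1.7 and edgeR. The deposited table was used as it stands, with 15304 genes and no further filter. All genes exceed a CPM of 1 in 4 or more libraries, and the filter behind this is not given in the sources used here. Column names gave the strain, sex and pool number by which they were assigned to samples, and gene identifiers and symbols were taken from the table. No coordinates or sequences are given.

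Differences were tested in R 4.3.3 with limma 3.58.1 (lmFit, then eBayes with its trend option). The values were log2(CPM + 0.5) of all genes in all 16 libraries, and the model had strain and sex as terms. Benjamini-Hochberg adjustment ran over all genes, with a threshold of 0.05. Fold changes on this scale understate changes of low values. Differences that depend on sex came from a model with a mean for every strain and sex. All tests are two-sided. The authors worked on counts with edgeR, and a count test was not run here. The number of reads per library was taken from the size of the steps between values. With that number, 100% of the values in every library were whole reads within a tolerance of 0.1. It was used only to give depth and reads per gene. The scripts were tested on simulated data.

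The 9 genes and the gene lists (8 pathway lists with 60 of 103 genes in the table, and 6 marker lists with 34 of 54) were chosen with earlier results of these data known. Ptges3b among the receptor chaperones and scg5 among the prohormone processing genes had 2 entries each. Only the first entry of each was counted in its list. From a list, up to 4 genes past the threshold in HSB against LSB are named, those with the largest changes first. The 3 genes most correlated over libraries are named for oxt, avp and the genes called in HSB against LSB. Klf9, cebpd, dio2, igf1, hsd17b3, cyp19a1b, prl2, pomca, the oxytocin and vasopressin receptor genes and hbaa1 were named outside these rules or after their values were seen. Alternatives were rescaling by the median ratio, a minimum mean CPM of 1, the added constants 0.1 and 1, the pool number as a block, HSB and LSB libraries alone, and leaving out both LSB pools numbered 2 or each library in turn. Python 3.11.15 with numpy 2.4.6, pandas 2.3.3 and matplotlib 3.10.9 was used for other steps.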

Additional observations from a re-analysis of the deposited data

Results flagged for a closer look

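In HSB, crhr1 had 1 library far from the rest. HSB male pool 1 measured 5.49 CPM, the nearest other HSB library had 4.91 CPM, and the gap was 0.919 of the range of the 4 libraries, above Dixon's critical value for 4 values. The test was applied to 54 groups (the 9 genes in each strain of 4 libraries and each sex of 8), this was the 1 group past its critical value, and chance alone would put a few past it. HSB lay above LSB for crhr1 without this library as well.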

How the results depend on the processing

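The 45 log2 fold changes of single genes and the counts of calls were recomputed in 23 settings, which gave 1309 values. Of these, 1231 kept their direction and their side of the threshold (for counts, stayed within 1.5 times), and 25 changed sign, none of them with an adjusted p under 0.05. The pool numbers did not show a pairing common to all groups, and pairing within single strains was not tested apart. The correlations of same-numbered deviations over 28 pairs of groups ran from -0.22 to 0.31 (median 0.02), with 5 over 0.1. With the pool number as a replicate block, crhb in HSB against LSB was lost (adjusted p = 0.0508), oxt was gained (adjusted p = 0.0485) and 3 genes of the table passed in the sex difference of HSB against LSB. With the HSB and LSB libraries alone, 1914 genes passed between them in place of 3352. Without both LSB pools numbered 2, 80 genes passed between males and females in place of 6, and 3 in the sex difference of HSB against LSB. In that setting the log2 values changed sign for crhbp in HSB against LSB (-0.0277), for crhb (0.00757), crhr1 (-0.0327) and nr3c1 (-0.00858) in males against females, and for crhbp (-0.0444) and crhr1 (0.0473) in the sex difference of HSB against LSB. The value of crhb in the latter turned to 0.0331 after rescaling.

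Leaving out 1 library at a time gave 2 to 4 of the 9 genes and 2354 to 3957 genes of the table in HSB against LSB, 4 to 5 of the 9 in AB against SH, 5 to 6 in wild-derived against commercial strains and 6 to 7 over strains. Genes of the table numbered 5 to 52 in males against females, 0 to 2485 in the sex difference of HSB against LSB (0 to 3 of the 9) and 0 to 1947 in sex by strain (0 to 2 of the 9). Values that changed sign among these fits ranged, in HSB against LSB, from -0.0414 to 0.0953 for crhbp, -0.184 to 0.0268 for avp and -0.0686 to 0.0135 for nr3c1. In AB against SH they ranged from -0.0121 to 0.0276 for nr3c1 and -0.0606 to 0.689 for fkbp5, and in males against females from -0.0205 to 0.0878 for crhr1. In the sex difference of HSB against LSB they ranged from -0.16 to 0.11 for crhb, -0.14 to 0.23 for crhbp and -0.28 to 0.30 for avp. The causes were not tested. With 2 pools for each strain and sex, differences that depend on sex rest on few libraries.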

Other observations

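The genes whose levels over the 16 libraries most resembled those of fkbp5, looked up after its spread between pools had been seen, were pik3r3a (Pearson r of log2(CPM + 0.5) 0.91), gpr63 (0.88) and nr1d2a (0.88). The first encodes a regulatory subunit of phosphoinositide 3-kinase and the last a nuclear receptor of the circadian clock. These values include the strain differences that the libraries share.

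Among the genes beside the stress axis, the oxytocin and vasopressin receptors had 0 of 3 genes past the threshold in AB against SH and 0 of 3 in the wild-derived against the commercial strains, where oxt itself was lower in AB and in the wild-derived lines. Over all genes 36.8% and 37.2% passed in these comparisons, 22.8% and 24.3% lower. The CRH family list had 2 of 3 genes lower in each, and the prohormone processing list had 2 higher and 4 lower of 9 in the wild-derived lines. Of the 18 glucocorticoid-responsive genes, 2 were higher and 3 lower there, with a median log2 difference of 0.06.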
